A study of Mus musculus with 12 samples.

Results

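The replication-dependent histone genes encode the core histones H2A, H2B, H3 and H4, around which DNA is wrapped in the nucleosome, and the linker histone H1. Their members were taken as every row of the expression tables whose symbol opens with Hist1h, Hist2h, Hist3h or Hist4h, the older mouse names of the 4 clusters. This rule found 69 of 24906 rows, the same 69 rows in both tables. There were 6 rows of H1 genes, 19 of H2A, 19 of H2B, 12 of H3 and 13 of H4. The Hist1 cluster on chromosome 13 held 55 of them, the Hist2 cluster on chromosome 3 held 10, the Hist3 cluster on chromosome 11 held 3, and Hist4h4 on chromosome 6 stood alone.

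These genes are transcribed mainly in S phase, when newly copied DNA must be packed into nucleosomes. Most of their messages carry no poly(A) tail and end instead at a short stem-loop, which is bound by the stem-loop binding protein and cut downstream with the help of the U7 ribonucleoprotein. The gene copies of 1 type encode nearly the same protein, and some members are also known to give polyadenylated messages outside S phase.

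The libraries came from organoids grown from macroscopic small intestinal tumors of Smad4f/f; BRAFV600E/+; Villin-CreERT2 mice, in which a Cre driven by the villin promoter acts in the gut epithelium and is switched on by tamoxifen. All of the organoids carried the oncogenic BRAF allele and the Smad4 deletion and were labelled as holding pINDUCER-SMAD4, from which doxycycline (dox) switches on SMAD4 after lentiviral transfer. They were cultured for 48 h with vehicle or with 4 ug/mL dox, either in BME, a basement membrane extract, or on plastic. The BME set held an untreated library of each of the lines 682, 700 and 889 (n = 3) and a dox library of 700 and of 889 (n = 2). Its sixth library, of line 682, is labelled as 4 ug/mL doxycycline (mock), so its label names the same dose as the dox libraries. Called mock dox here, it was counted as a control, giving 4 controls, since the study counts 4 vehicle and 2 dox libraries. The plastic set paired an untreated with a dox library in each of the lines 560, 700 and 889 (n = 3 per arm). Each line gave 1 library per condition, and the labels do not give the age of the mice.

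The values are FPKM, fragments per kilobase of transcript scaled to sequencing depth, and the 2 environments were normalized separately, so levels were not compared between them. Rebuilt read totals lay between 14528565 and 21062625 per library, and histone rows took 0.0164% to 0.0508% of them. Smad4 was 6.23 to 10.3 FPKM in the 4 BME controls (mock dox, 10.3) and 17.2 and 27.3 with dox, and on plastic 1.54 to 4.76 untreated and 18.1 to 73.6 with dox. The groups did not overlap, although the change of Smad4 missed the threshold across all genes (limma, adjusted p = 0.959 in BME and 0.162 on plastic). Of 8 intestinal epithelial markers, 7 or 8 were above 0 in every library. In BME these summed to 7511 and 9520 FPKM with dox and to 3892 to 4886 in the 4 controls. On plastic the sums were 11665 to 17185 with dox and 13021 to 14202 untreated. By contrast, 6 fibroblast markers summed to at most 5.41 FPKM, 4 endothelial markers to at most 3.65 and 6 immune markers to at most 39.0. The 3 highest sums of these other markers came with dox: fibroblast and endothelial in line 889 in BME and immune in line 889 on plastic, where it was Cd68; their part in the histone values was not tested.

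The histone stem-loop is shown first, since it sets these genes apart from nearly all others. The pattern GGNNCTTTNNAGNNCC was searched on the coding strand in the 200 bases after the stop codon, on the NCBIM37 (mm9) genome with the GENCODE vM1 annotation. It was found in 61 of the 67 histone genes with an annotated stop codon (91.04%) and in 70 of all 21964 genes (0.3187%), at 22 to 59 bases from the stop codon. Only 6 different sequences occurred, and examples of each are given here 5′ to 3′, with the paired arms of the stem in capitals.
Hist1h2ap (chr13:21924898-21924913, minus strand; the sequence of 39 genes): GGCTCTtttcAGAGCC
Hist1h3e (chr13:23653772-23653787, minus strand; 9 genes): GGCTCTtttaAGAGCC
Hist1h4h (chr13:23623327-23623342, plus strand; 8 genes): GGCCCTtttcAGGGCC
Hist2h4 (chr3:96066862-96066877, minus strand; 2 genes): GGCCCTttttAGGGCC
Hist1h4j (chr13:21827306-21827321, plus strand; 2 genes): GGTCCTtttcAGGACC
Hist2h2ac (chr3:96024341-96024356, minus strand; 1 gene): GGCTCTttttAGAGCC
The arms varied with the type of histone: all examples with GGCC or GGTC at the start came from H4 genes, and all H1, H2A, H2B and H3 examples began with GGCT. No match lay in this window for Hist1h2al, Hist1h2an, Hist1h3g, Hist1h4a, Hist2h2bb and Hist2h2be. An annotated 3′ end of at least 300 bases past the stop codon was present in 15 genes, and 11 rows had the polyadenylation signal AATAAA within the last 50 bases of an annotated end. These 11 were Hist1h1c, Hist1h1t, Hist1h2ae, Hist1h2ai, Hist1h2bc, Hist1h2bp, Hist1h4a, Hist2h2be, Hist2h3c1, Hist2h4 and Hist3h2ba.

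The copies of 1 type are so alike that reads can be split between them. The median coding identity between 2 genes was 91.1% for H2A, 96.6% for H2B, 97.6% for H3 and 93.9% for H4, but 70.9% for H1, and all 78 pairs of H4 genes encoded the same protein. The coding sequences of Hist1h2ao and Hist1h2ap, of Hist2h2aa1 and Hist2h2aa2, of Hist1h2bq and Hist1h2br and of Hist1h4m and Hist1h4n were identical, and the rows of Hist1h2bq and Hist1h2br held the same value in every library. Hist2h3c1 and Hist2h3b, whose levels are given later, differed at 1 of 411 coding bases, T21C, counted from the start codon with the base of Hist2h3c1 first. The 31 bases around it are printed with that base in capitals, on the plus strand of NCBIM37.
Hist2h3c1 (chr3:96050814-96050844): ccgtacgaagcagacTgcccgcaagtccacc
Hist2h3b (chr3:96072622-96072652): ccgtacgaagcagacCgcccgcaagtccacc
The transcripts were also short: the effective length behind the FPKM was below 400 bases in 52 of 69 rows, with a median of 309, so that 1 read was worth a median of 0.195 FPKM in BME and 0.159 on plastic. All single-gene values here are therefore uncertain where a near-identical copy exists.

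Promoters, from 250 bases before to 50 after the start, were matched for 61 of the 69 rows in RefSeq (GRCm38.p6). The CCAAT box (CCAAT or ATTGG on the other strand) was in 85.25% of them and in 37.41% of all 32851 promoters. It was present in all 6 H1, 17 H2A, 16 H2B and 10 H3 promoters but in 3 of 12 H4 promoters. The octamer ATTTGCAT (or ATGCAAAT), known from H2B promoters, was in 7 H2A and 6 H2B promoters and in none of the H1, H3 or H4 ones, against 1.735% of all promoters. TATAAA (or TTTATA) was in 57.38% against 13.62%. The promoters of Hist1h1c and Hist2h2aa1, 2 genes that were higher with dox in every pair described below, are shown with these motifs in capitals.
Hist1h1c (chr13:23738557-23738856, plus strand): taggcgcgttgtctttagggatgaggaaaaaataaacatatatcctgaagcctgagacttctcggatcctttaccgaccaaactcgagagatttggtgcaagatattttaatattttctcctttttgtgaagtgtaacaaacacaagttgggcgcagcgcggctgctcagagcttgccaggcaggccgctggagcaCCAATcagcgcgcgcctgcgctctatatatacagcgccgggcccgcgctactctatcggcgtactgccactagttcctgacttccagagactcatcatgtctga
Hist2h2aa1 (chr3:96245247-96245546, plus strand): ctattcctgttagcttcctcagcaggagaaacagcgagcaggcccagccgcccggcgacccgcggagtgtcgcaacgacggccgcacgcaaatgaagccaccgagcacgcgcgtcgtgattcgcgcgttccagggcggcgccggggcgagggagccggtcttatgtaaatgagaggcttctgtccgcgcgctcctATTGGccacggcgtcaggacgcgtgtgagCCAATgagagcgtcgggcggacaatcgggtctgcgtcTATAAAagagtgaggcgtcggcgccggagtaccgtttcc
The first holds 1 CCAAT box and the second holds 2, one on each strand, and a TATA box.

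Between 34 and 57 of the 69 histone rows were above 0 FPKM in a library. The lowest number was in the dox library of line 700 in BME, against 44 in its untreated partner, and the other 10 libraries had 49 to 57. Only 16 to 32 rows reached 1 FPKM, and 6 to 10 reached 10 FPKM. Hist1h2aa, Hist1h2ba and Hist1h4n were listed at 0 in all BME libraries and Hist1h1t in all plastic libraries. A mean of at least 0.5 FPKM, the level required for a test, was reached by 33 rows in BME and 36 on plastic, 24 of them in both tables, and 24 rows reached it in neither. In BME, Hist1h2ad (0.501 FPKM) was just inside this limit and Hist1h2bj (0.489) just outside; on plastic, Hist1h2bj (0.531) was just inside and Hist1h3a (0.482) just outside.

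The histone signal was carried by a few genes. Hist1h2ao, Hist1h2ap, Hist1h1c, Hist1h2bc, Hist2h2aa1 and Hist3h2a, singled out after their levels were seen, held 89.7% to 93.6% of the summed histone FPKM in every BME library. On plastic they held 86.7% to 97.0% in 4 libraries and 80.2% and 55.6% in the dox libraries of lines 889 and 700. Hist1h2ap was the highest histone row in 9 of the 12 libraries, Hist1h2bc in the dox library of line 700 in BME, and Hist2h2aa1 in the plastic dox libraries of lines 700 and 889.

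The summed level of all histone rows had no common direction with dox. In BME the sum was 489 FPKM with dox and 601 untreated in line 700 (ratio 0.813), but 694 and 573 in line 889 (ratio 1.21). On plastic it was 744 with dox and 1610 untreated in line 560 (ratio 0.462), whereas it was 818 and 421 in line 700 (ratio 1.94) and 696 and 395 in line 889 (ratio 1.76). The mock dox library of line 682 had 563 FPKM against 840 in its untreated partner (ratio 0.671), further from 1 than in both BME dox pairs and nearer to 1 than in the 3 plastic pairs. These sums were given no test.

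**Figure D1:**
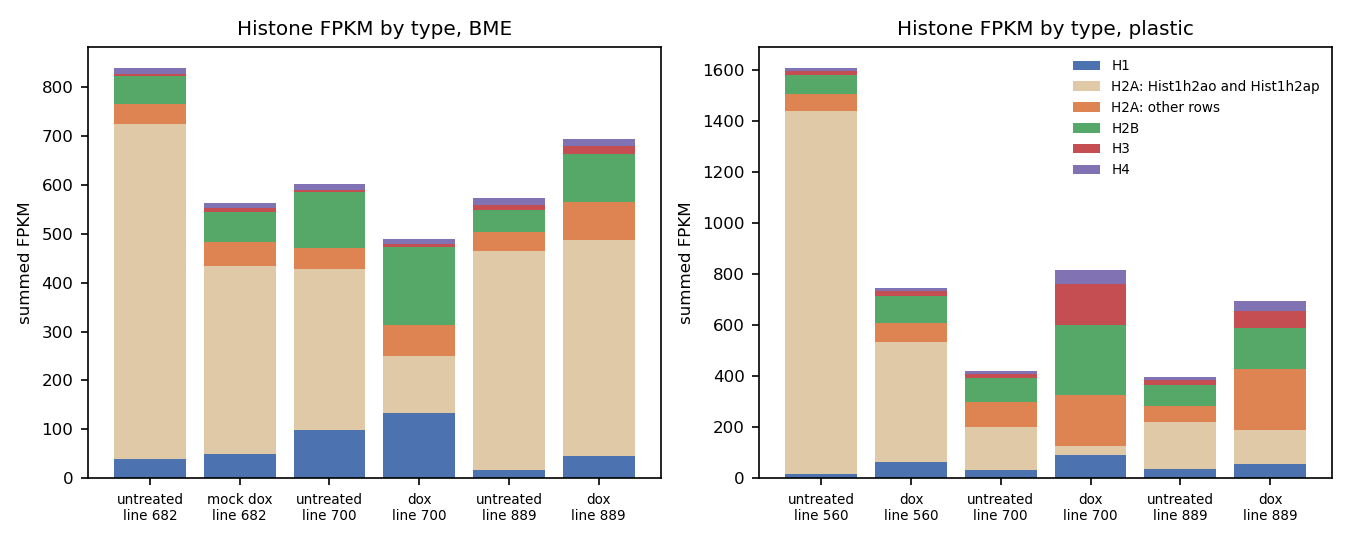
Summed FPKM of the 69 histone rows in each library, stacked by histone type, with Hist1h2ao and Hist1h2ap drawn apart from the other H2A rows; the vertical scales of the BME (left) and plastic (right) panels differ. The Hist1h2ao and Hist1h2ap band is at 472 FPKM with dox and 1420 untreated in line 560 on plastic, and at 37.4 and 169 in line 700, while the bands of H1 and H2B are taller with dox in every same-line pair.

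Behind these sums, 2 H2A copies of identical coding sequence and the total of the other rows lay on opposite sides. The identical H2A copies Hist1h2ao and Hist1h2ap together were at 117 FPKM with dox and 329 untreated in line 700 in BME, and at 442 and 447 in line 889. On plastic they were at 472 with dox and 1420 untreated in line 560, at 37.4 and 169 in line 700, and at 133 and 184 in line 889. They were lower with dox in all 5 pairs, by ratios of 0.354, 0.990, 0.332, 0.222 and 0.724, and the second of these is close to no difference. All other histone rows together were higher with dox in all 5 pairs, by ratios of 1.37 and 2.0 in BME and 1.44, 3.09 and 2.66 on plastic (lines 560, 700 and 889). Of those rows, the 63 that remain without Hist1h1c, Hist1h2bc, Hist2h2aa1 and Hist3h2a had ratios of 0.966, 1.44, 0.975, 6.48 and 2.91, lower in 2 of the 5 pairs. In line 700 on plastic, leaving out Hist2h4, Hist2h3b and Hist2h2bb gave 1.66 for these 63 rows and 2.02 in place of 3.09 for all other rows. For Hist1h2ao with Hist1h2ap and for all other rows, the mock dox library against its untreated partner had ratios of 0.560 and 1.17, in the same 2 directions. By type, summed H1 was 1.36 and 2.60 times the untreated level in BME (lines 700 and 889) and 3.59, 2.68 and 1.54 times on plastic (lines 560, 700 and 889), but without Hist1h1c the ratios were 0.633, 1.59, 1.23, 1.70 and 1.47. Summed H2B was 1.39, 2.14, 1.44, 2.93 and 1.96 times, but without Hist1h2bc and Hist2h2bb the ratios were 0.801, 1.87, 0.889, 0.973 and 1.51, lower in 3 of the 5 pairs. Summed H2A was at 0.484, 1.07, 0.366, 0.896 and 1.495 times. Without Hist1h2ao and Hist1h2ap the H2A ratios were 1.48, 1.98, 1.06, 2.09 and 3.65, for a remainder that includes Hist2h2aa1. Summed H3 was at 1.29, 1.67, 1.32, 9.21 and 3.50 times and summed H4 at 0.808, 1.04, 0.703, 4.49 and 4.46 times in the same order. In line 700 on plastic the H2B ratio was 1.60 without Hist2h2bb, the H3 ratio 2.83 without Hist2h3b and the H4 ratio 1.82 without Hist2h4, 3 genes that were high in that library alone. Without Hist2h3b and Hist2h3c1, a row at 0 in every control that is described below, the H3 ratios were 0.372, 1.25, 1.05, 2.16 and 2.45, so the one of line 700 in BME turned lower. On plastic the pseudogene row Hist2h3c2 held 10.2 of the 13.6, 30.6 of the 36.3 and 32.7 of the 46.9 FPKM that remained with dox. Untreated, it held 5.71 of 12.9, 12.8 of 16.8 and 13.9 of 19.1 FPKM (lines 560, 700 and 889). The H3 ratios without this row as well were not computed. In the mock dox pair the ratios were 1.28 for H1, 0.596 for H2A, 1.11 for H2B, 1.48 for H3 and 0.792 for H4, and the H3 ratio there exceeded that of line 700 in BME.

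Among the H2A genes, Hist1h2ap was at 86.1 and 321 FPKM with dox in BME (lines 700 and 889), and at 278, 526, 228 and 314 in the controls (mock dox, then untreated 682, 700 and 889). On plastic it was at 418, 30.6 and 122 with dox and 1266, 150 and 166 untreated (lines 560, 700 and 889). The arms overlapped in both environments, and the change was -0.94 ± 0.57 (SE) in BME and -1.43 ± 1.16 on plastic on the log2(FPKM + 1) scale, with adjusted p = 0.959 and 0.807 (limma). In BME that difference rested on the dox library of line 700: without it the change of Hist1h2ap was 0.0028. The level of Hist1h2ap was 2.26 to 3.30 times that of Hist1h2ao in BME and 4.495 to 10.7 times on plastic, and Hist1h2ao had changes of -0.99 ± 0.52 and -1.14 ± 1.04 (adjusted p = 0.959 and 0.831).

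Hist2h2aa1, an H2A gene of the Hist2 cluster, went the other way. It was at 35.9 and 42.3 FPKM with dox in BME and at 9.02, 17.7 and 15.3 untreated (lines 682, 700 and 889) and 15.998 in the mock dox library, so that the arms did not overlap. In the mock dox pair it was thus also higher, by 0.76. On plastic it was at 47.2, 158 and 185 with dox and 41.2, 48.0 and 38.8 untreated (lines 560, 700 and 889), and line 560 with dox lay below line 700 untreated. Its change was 1.41 ± 0.27 (unadjusted p = 0.002) in BME and 1.37 ± 0.51 (unadjusted p = 0.033) on plastic, and neither passed adjustment over all genes (limma, adjusted p = 0.959 and 0.570). Its identical copy Hist2h2aa2 was lower in 11 of 12 libraries (in untreated line 682 in BME it was at 11.03 against 9.02), at 1.41 to 14.8 FPKM in BME and 0 to 5.88 on plastic, and the copy Hist2h2aa1 took 45.0% to 91.6% of their sum in BME and 89.1% to 100% on plastic. What part the assignment of reads between identical copies had in this split was not tested.

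Hist3h2a, the H2A gene of the Hist3 cluster, was at 12.4 and 22.1 FPKM with dox in BME and 10.8 to 14.1 in the controls, and at 18.4, 33.3 and 41.3 with dox and 18.3, 33.0 and 18.6 untreated on plastic (lines 560, 700 and 889). It was higher with dox in all 5 pairs but by only 0.011 in 2 of the plastic pairs (adjusted p = 0.959 and 0.845). Hist1h2ad and Hist1h2ae were low, both under 2 FPKM in every library, and had changes of -0.46 and -0.46 in BME (adjusted p = 0.959 for both), and Hist1h2ae of -0.50 on plastic (adjusted p = 0.655).

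H2B was carried by Hist1h2bc. It was at 149 and 81.9 FPKM with dox in BME and at 47.3 in the mock dox library and 41.9, 103 and 37.2 in the untreated libraries of lines 682, 700 and 889. On plastic it was at 100.1, 141 and 149.8 with dox and 67.6, 84.6 and 75.1 untreated (lines 560, 700 and 889). It was higher in all 5 pairs and the plastic arms did not overlap, with a change of 1.06 ± 0.45 in BME and 0.76 ± 0.22 on plastic (unadjusted p = 0.057 and 0.013, adjusted p = 0.959 and 0.485). Hist1h2bg, at 2.07 to 5.91 FPKM in BME, had a change of -0.10 ± 0.35, and Hist2h2be, which lacks the stem-loop pattern, of 0.033 ± 0.27 in BME and 0.13 ± 0.44 on plastic. Hist3h2ba was below 1.4 FPKM in all libraries (change in BME, -0.62; adjusted p = 0.959), and the Hist3h2bb-ps pseudogene row was above 0 in 3 libraries only.

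The linker histone gene Hist1h1c stood for most of the H1 level. It was at 132 and 43.8 FPKM with dox in BME against 95.5 and 16.2 untreated in the same lines, with 37.3 untreated and 47.6 mock dox in line 682. On plastic it was at 60.0, 85.7 and 49.1 with dox and 14.5, 31.1 and 31.8 untreated (lines 560, 700 and 889). The BME arms overlapped, since line 700 was high in both conditions, and the plastic arms did not. Its change was 0.88 ± 0.73 in BME and 1.34 ± 0.37 on plastic (unadjusted p = 0.272 and 0.009, adjusted p = 0.959 and 0.430). The other named H1 genes were low: Hist1h1e was at 0.16 to 1.72 FPKM over both tables and Hist1h1b at 0.11 to 2.69.

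The H3 rows held the only call, 1 of 33 histone genes tested in BME, where 0.0231% of all genes were called higher. That gene, Hist2h3c1, passed the filter through its dox libraries alone and was compared with controls that are all at 0 and have no spread, so nothing is read from its count against that share. Hist2h3c1 was listed at 0 in all 4 BME controls, the mock dox library included, and in all 3 untreated plastic libraries. With dox it was at 4.80 and 3.96 FPKM in BME (lines 700 and 889) and at 3.05, 11.3 and 19.9 on plastic (lines 560, 700 and 889). The rise in BME was 2.42 ± 0.19 with adjusted p = 0.0384, and on plastic the change was 3.34 ± 0.57 with adjusted p = 0.192 (limma, 3 against 3 libraries). With the line as a block, since dox and untreated libraries share lines, the adjusted p in BME was 0.139, so the call was lost.

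The reads behind Hist2h3c1 had an unusual step. The rebuilt reads were 32 and 32 in the BME dox libraries and 32, 96 and 160 in the plastic dox libraries. Before rounding they were 32.11, 31.88, 31.88, 96.43 and 159.80, so the rounded values are all multiples of 32 while the unrounded ones miss a whole number by over 0.1. A common divisor of 8 or more among the rebuilt reads was found in 3 of 17713 genes above 0 in at least 2 BME libraries and in 9 of 17551 on plastic, and among histone rows in Hist2h3c1 alone. The annotated span of Hist2h3c1 (chr3:96049477-96052431, plus strand) also contains most of Hist2h2aa1 (chr3:96049461-96050038, plus strand), and its coding sequence differs from that of Hist2h3b at the single base shown above. What part the assignment of shared reads had in the values of Hist2h3c1 was not tested.

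Of the other H3 rows, Hist2h3c2, annotated as a pseudogene, was at 0.155 and 4.98 FPKM with dox in BME and 1.61 to 3.25 in the controls. On plastic it was at 10.2, 30.6 and 32.7 with dox and 5.71, 12.8 and 13.9 untreated (lines 560, 700 and 889), higher in all 3 pairs (change 1.04 ± 0.52, adjusted p = 0.649). Hist1h3d was at 0.20 to 2.58 FPKM in BME, with a change of 0.42 ± 0.42 (adjusted p = 0.959).

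Most H4 genes were low, with Hist1h4i at 3.25 to 6.66 FPKM in BME and 4.33 to 7.79 on plastic (changes -0.28 ± 0.25 and 0.16 ± 0.28). Apart from Hist2h4, described below with its neighbours, Hist1h4h and Hist1h4m differed most in the plastic pair of line 889. There Hist1h4h was at 8.22 FPKM with dox and 0.550 untreated, and Hist1h4m at 8.23 with dox and listed at 0 untreated. In line 700 Hist1h4h was at 2.64 with dox and 1.93 untreated and Hist1h4m at 3.49 and 0.436. In line 560 they were at 1.99 and 1.26, and at 1.02 and 1.63, so Hist1h4m was lower with dox there. Their changes on plastic were 1.10 ± 0.48 and 1.49 ± 0.61 (unadjusted p = 0.058 and 0.048, adjusted p = 0.613 and 0.599). Hist1h4d was at 1.54 and 1.88 FPKM with dox in BME and 0.328 to 1.55 in the controls (change 0.55, adjusted p = 0.959), and had a change of -0.32 on plastic (adjusted p = 0.900). Hist4h4 was at or below 0.691 FPKM in every library and was not tested.

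A stretch of the Hist2 cluster was high in 1 library. In the plastic dox library of line 700, Hist2h4 was at 34.5 FPKM (124 rebuilt reads), Hist2h3b at 111 (632 reads) and Hist2h2bb at 125 (690 reads). In the other 11 libraries the highest values were 1.35, 2.10 and 1.18 FPKM. The 3 genes are neighbours on chromosome 3, at chr3:96065627-96067234, chr3:96072577-96073064 and chr3:96073644-96082924. The next histone rows, Hist2h3c1 and Hist2h2aa1, were at 11.3 and 158 FPKM in that library and at 0 and 48.0 in its untreated partner. Outside the cluster, Bola1 was at 15.6 and 16.2 and Sf3b4 at 127 and 99.7, and Fcgr1 was at or below 0.030 FPKM in every library. The 3 genes made up 33.2% of the summed histone FPKM of that library and 0.0586% to 0.6% of that of the others. Their fitted changes were 2.06 ± 1.08, 2.56 ± 1.43 and 2.76 ± 1.56 (adjusted p = 0.666, 0.698 and 0.704), and without that library they were 0.70, 0.75 and 0.77.

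**Figure D2:**
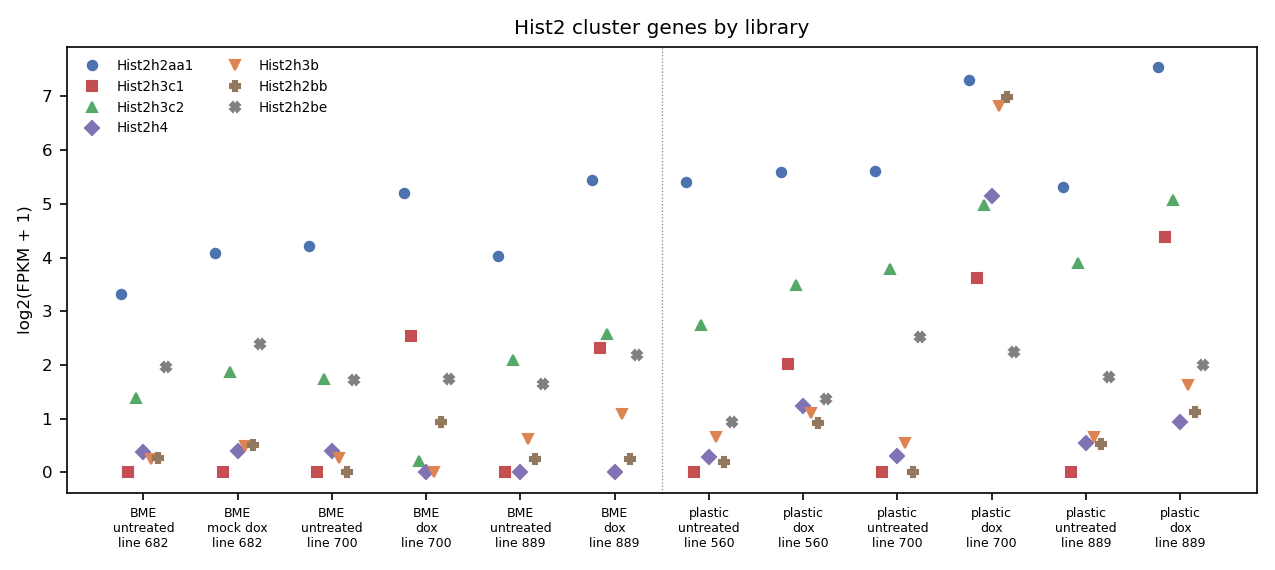
Level of 7 Hist2 cluster genes in each library, as log2(FPKM + 1), with the 6 BME libraries left of the dotted line and the 6 plastic libraries right of it; each point is 1 gene in 1 library. Hist2h3c1 (red squares) is at 0 without dox and in the mock dox library and above it in all 5 dox libraries, and Hist2h4, Hist2h3b and Hist2h2bb are high only in the plastic dox library of line 700.

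Among the 33 histone genes tested in BME, Hist2h3c1 was the only one called and 0 were called lower. Of all 12996 genes, 0.0231% were called higher and 0% lower. On plastic 0 of 36 were called in either direction (limma, and likewise with limma-voom on the rebuilt reads), against 0.0243% higher and 0.00811% lower among 12333 genes. At an unadjusted p under 0.05, 2 histone genes were higher and 0 lower in BME (all genes, 2.62% and 1.47%), and 6 were higher and 0 lower on plastic (all genes, 4.56% and 3.73%). The median change was -0.025 in BME and 0.46 on plastic, beside -0.0057 and 0.0088 over all genes tested. The plastic median was 0.041 over the 68 rows fitted with no filter on low values, and the BME median was 0.18 without the dox library of line 700. With the line as a block, 6 histone genes were higher and 1 lower in BME at an unadjusted p under 0.05 (4.38% and 3.03% of all genes), and 9 were higher and 2 lower on plastic (7.44% and 6.05%). The 2 lower were Hist1h2ao and Hist1h2ap (blocked unadjusted p = 0.0051 and 0.011, adjusted p = 0.194 and 0.249). These counts cover rows that passed the filter, and the filter favoured a difference in a row that passed through 1 arm alone.

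By pairs, 14 of 33 histone genes were higher with dox in both BME pairs (27.2% of all genes) and 4 lower in both (29.5%). On plastic 17 of 36 were higher in all 3 pairs (18.6% of all genes) and 3 lower (18.7%). The filter itself adds to such counts: of the 17, 7 had an untreated mean under 0.5 FPKM (Hist1h1e, Hist1h2bn, Hist1h3e, Hist1h4j, Hist2h2bb, Hist2h3c1 and Hist2h4), as had 2 of the 14 in BME, so nothing is read from them. Likewise, of the 4 lower in BME, 2 had a dox mean under 0.5 FPKM (Hist1h2ad and Hist1h3a), against 0 of the 3 on plastic. The arms did not overlap for 5 higher genes and 0 lower in BME (6.33% and 5.83% of all genes), and for 8 higher and 1 lower on plastic (7.87% and 7.26%). Of the 24 genes tested in both tables, Hist1h1c, Hist1h2al, Hist1h2bc, Hist1h2be, Hist2h2aa1, Hist2h3c1 and Hist3h2a were higher in all 5 pairs (7 genes, against 8.7% of all genes) and Hist1h2ao was lower in all 5 (8.06% of all genes). Of these 7, Hist2h3c1 had a control mean under 0.5 FPKM in both tables and Hist1h2be in BME. The filter thus adds to this count too, and nothing is read from these 2 genes.

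**Figure D3:**
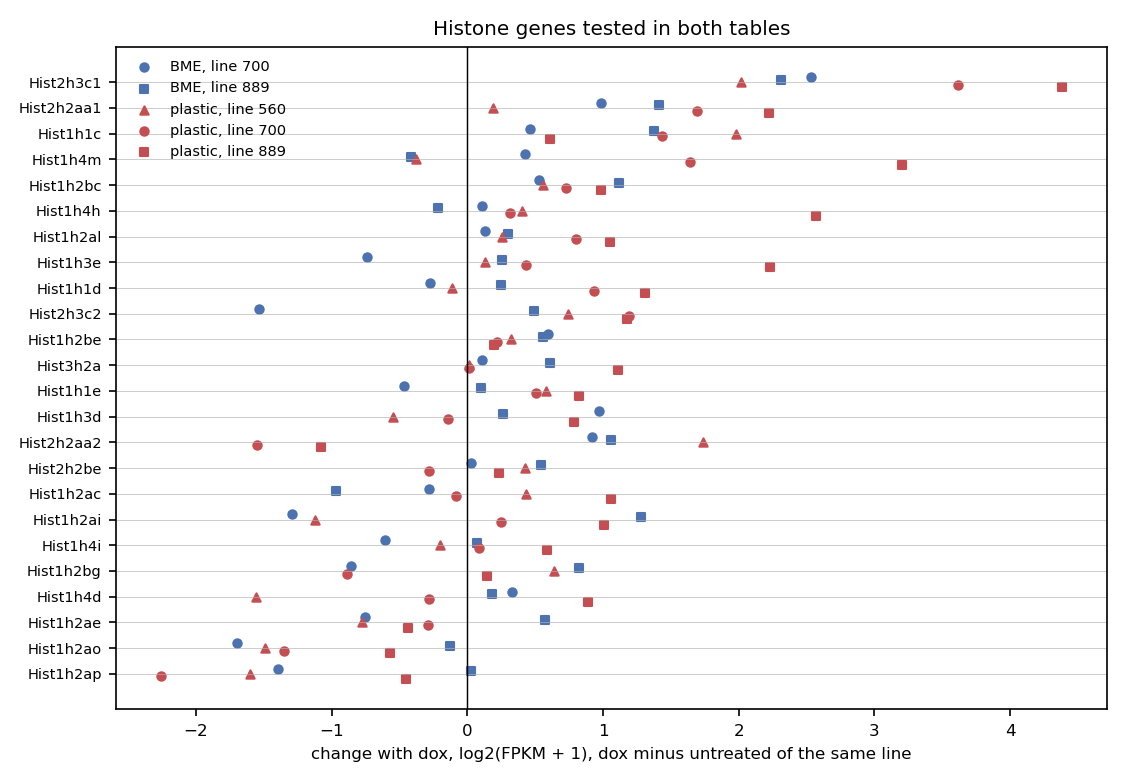
Change with dox in each same-line pair, dox minus untreated on the log2(FPKM + 1) scale, for the 24 histone genes tested in both tables, ordered by the mean of the 5 pairs; BME pairs are blue and plastic pairs red, and the marker gives the line. Hist2h3c1 lies between 2.02 and 4.38 in all 5 pairs, Hist1h2ao lies below 0 in all 5, and most other genes have pairs on both sides of 0.

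The summed level of the rows with an annotated polyadenylation signal was higher with dox in all 5 pairs. Summed over the 11 rows, their FPKM with dox was 1.41 and 2.43 times that of the untreated library in BME (lines 700 and 889) and 1.92, 2.25 and 2.05 times on plastic (lines 560, 700 and 889). In the mock dox library it was 1.19 times that of the untreated partner. Hist1h1c and Hist1h2bc made up most of this sum, 53.4 to 281 FPKM in a BME library against 3.86 to 13.6 for the other 9 rows. Without these 2 genes the ratios were 1.11 and 3.54 in BME and 1.42, 6.48 and 5.84 on plastic, and without Hist2h4 as well the one of line 700 on plastic was 2.27. Most of that depended on Hist2h3c1: leaving out both it and Hist2h4, the ratios were 0.466 and 2.51 in BME and 0.629, 0.836 and 2.22 on plastic, lower in 3 of the 5 pairs. The 58 rows without the signal had ratios of 0.505 and 1.08 in BME and 0.379, 1.81 and 1.65 on plastic. The members of the first set that were tested numbered 7 in BME and 8 on plastic, of which 4 and 5 were higher in every pair (27.2% and 18.6% of all genes) and 0 and 1 lower. These include Hist2h3c1 in both tables and Hist2h4 on plastic, which passed the filter through dox libraries alone. The filter itself favoured a rise in these genes, so nothing is read from them. Of the rows without the signal, 10 of 26 tested in BME and 12 of 28 on plastic were higher in every pair and 4 and 2 lower, and of those higher, 1 in BME (Hist1h2be) and 5 on plastic had a control mean under the filter's 0.5 FPKM. Whether the libraries were made from poly(A) RNA is not given in the sources used here, and its part in these levels was not tested.

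Genes that copy DNA in S phase were mostly lower with dox in 4 of the 5 pairs and evenly split in line 889 in BME, where their summed level was 810 FPKM with dox and 781 untreated. None of 20 genes of DNA synthesis (among them Pcna, the Mcm helicase subunits and the ribonucleotide reductase genes Rrm1 and Rrm2) was called in either table (limma), and at an unadjusted p under 0.05 there was 1 lower in BME (Cdt1; 1.47% of all genes) and 5 lower on plastic (3.73% of all genes), with 0 higher. With the line as a block there was 1 lower in BME (Pola1; 3.03% of all genes) and 16 lower on plastic (6.05% of all genes), with 0 higher and a lowest adjusted p of 0.156 on plastic. Cdc6, which loads the Mcm helicase, had a change of -0.91 on plastic (unadjusted p = 0.007, adjusted p = 0.396), Rrm1 of -0.91 (0.009, 0.435) and Mcm3 of -0.84 (0.013, 0.485). All 20 were lower in the BME pair of line 700 (50.9% of all genes) and 10 of 20 in that of line 889 (50.6%). On plastic 18, 20 and 19 of 20 were lower in lines 560, 700 and 889 (49.8%, 50% and 49% of all genes). The median change of the list in these 5 pairs was -0.93, -0.0088, -0.60, -0.63 and -0.80. Hist1h2ap alone, in the same order, had differences of -1.40, 0.030, -1.60, -2.25 and -0.45. The median over all histone genes tested did not go with it, at 0, 0.18, 0.16, 0.38 and 0.80. Some of those genes passed the filter through dox libraries alone. In the mock dox pair the DNA synthesis list was at -0.39, with 19 of 20 genes lower, Hist1h2ap at -0.92 and the histone median at 0.11. In these bulk libraries, a change in the share of cells in S phase and a change in RNA per cell cannot be told apart.

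The machinery of histone messages and of histone deposition was also measured. Of 21 genes for message processing and S-phase histone transcription present in the tables, 21 were tested in BME and 19 on plastic, and 0 were called in either (limma), with 0 and 1 lower at an unadjusted p under 0.05 (1.47% and 3.73% of all genes). Slbp, the stem-loop binding protein, had a change of -0.27 in BME and 0.20 on plastic (adjusted p = 0.959 and 0.861), and Npat, the coactivator of histone gene transcription, of -0.34 and 0.10 (0.959 and 0.968). The median change of the list was -0.16 in BME and -0.0011 on plastic. Of 20 histone chaperones 0 were called in either table (limma), with 0 and 5 lower at an unadjusted p under 0.05 (1.47% and 3.73% of all genes). These 5 were Asf1b (change -0.96), Chaf1a (-0.67) and Chaf1b (-0.77), which place new H3 and H4 on copied DNA, Hat1 (-0.68), which acetylates new H4, and Mcm2 (-0.69), which also counts among the DNA synthesis genes. The chaperone median was -0.28 in BME and -0.36 on plastic.

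A list of variant and replication-independent histones was also measured. Of 9 tested in each table, 0 were called (limma), 0 passed an unadjusted p under 0.05 in either table (with the line as a block, Cenpa alone on plastic), and their median change was -0.16 in BME and -0.14 on plastic. H3f3a, an H3.3 gene, had a mean of 742 FPKM in BME and 527 on plastic, and H2afz, the H2A.Z gene, of 222 and 116. Cenpa, the centromeric H3, had a change of -0.52 in BME and -1.01 on plastic (unadjusted p = 0.315 and 0.050, adjusted p = 0.959 and 0.603).

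**Figure D4:**
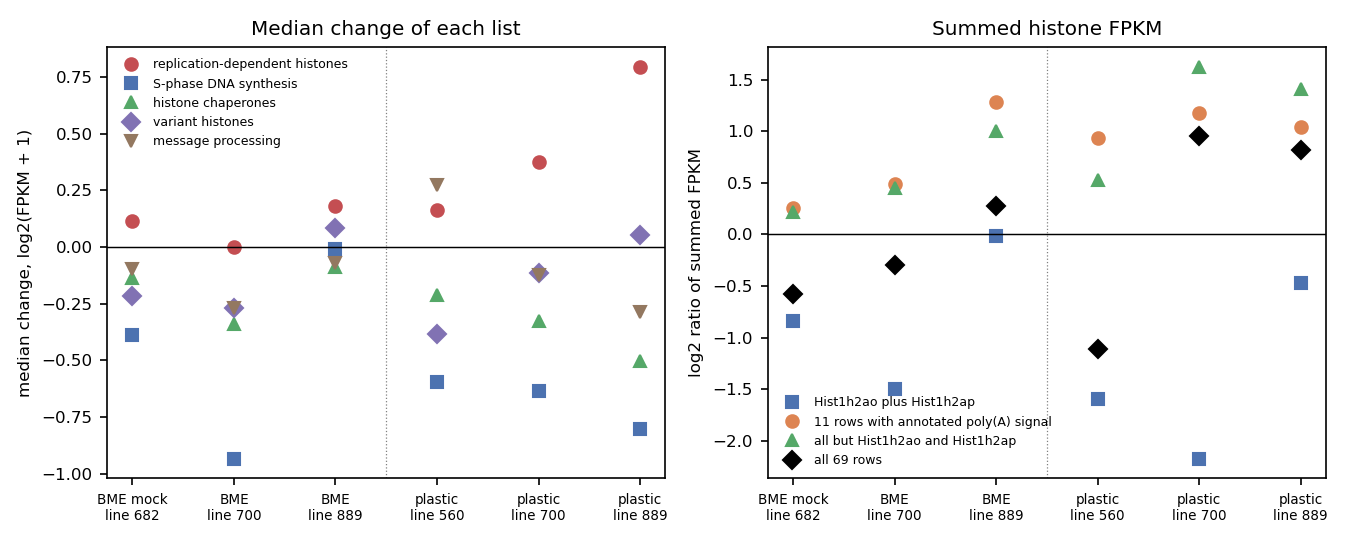
Left, median change of each gene list in each same-line pair, dox minus untreated on the log2(FPKM + 1) scale; right, log2 ratio of summed histone FPKM in the same pairs for 4 sets of rows, where the first pair is the mock dox library of line 682 against its untreated partner. The DNA synthesis median lies below 0 in all 6 pairs (-0.93 to -0.0088), the sum of Hist1h2ao and Hist1h2ap does too, and the sum of the 11 rows with an annotated polyadenylation signal lies above 0 in all 6. The histone median on the left covers rows that passed the filter, some of them through dox libraries alone.

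Whether the change with dox differed between plastic and BME was tested with the interaction of dox and environment over 11977 genes. None of 24 histone genes was called (limma; 0 also at an unadjusted p under 0.05), against 0% of all genes called and 2.53% at an unadjusted p under 0.05. The 3 largest differences were those of Hist2h3c2 (1.41 ± 0.87), Hist1h4m (1.26 ± 0.86) and Hist1h4h (1.04 ± 0.56), with adjusted p = 1.000 for each. With the line as a block, 3 were higher on plastic at an unadjusted p under 0.05 (Hist1h1e, Hist1h2ac and Hist2h3c2; 2.96% of all genes) and 0 lower (2.45%), and 0 were called. The difference for Hist2h3c1 was 0.92 ± 0.66. Lines 700 and 889 were used in both environments, so the 2 sets of libraries share organoid lines, while lines 682 and 560 were each used in 1.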

How the data were processed

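RNA of 12 organoid libraries (6 in BME, 6 on plastic) was extracted with a column kit and sequenced by a service provider. Per the labels (the submitters' processing notes) and the study's methods, the authors used kallisto and DESeq2, with mm9 as the build; versions, annotation and library preparation are not given in the sources used here. The authors deposited FPKM per gene, 1 table per environment, and tables of their own comparison holding fold changes and p-values, which were not used except for the mean signal over libraries (baseMean, normalized counts) that the authors deposited beside them. Reads were rebuilt from FPKM, this mean and the value of 1 read; 92.3% to 94.8% of low values came out whole within 0.1. The deposited FPKM had median-ratio factors of 1 in every library, so that alternative left ratios as they were.

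Changes were fitted with limma 3.58.1 (R 4.3.3) on log2(FPKM + 1), with trend, for genes with a mean of at least 0.5 FPKM, Benjamini-Hochberg adjustment over all genes, and a call needing both adjusted p below 0.05 and a change beyond 1 in size. The fit was tested on simulated data. No block was used, since the study's methods name none; the correlation of deviations of same-line libraries was 0.61 and 0.66 in BME and 0.25 to 0.61 on plastic, so the lines pair the samples. A pair is the dox and the untreated library of 1 line. On plastic the main p-values measure the spread between lines. In BME and for the interaction they mix it with spread within a line, since the BME controls include both the untreated and the mock dox library of 1 line. The main p-values also leave out the pairing of same-line libraries, which only the fits with the line as a block take in. Named genes were the 2 highest of each type, the 5 largest changes each way, calls, the 3 largest interactions and fixed names. Genes named only in lists of counts, and the 6 dominant genes, were named after values were seen. The members and lists were chosen with earlier results of these data known. Sequences were read with Biopython 1.88 from NCBIM37 and RefSeq tables.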

Additional observations from a re-analysis of the deposited data

Results flagged for a closer look

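In the 4 BME control libraries, 30 values were searched for a library far from the rest (Dixon's criterion, 0.829 of the range for 4 libraries), and 3 were found where chance gives about 1.5. Hist1h2bc was at 103 FPKM in the untreated library of line 700 and at 37.2 to 47.3 in the other 3. Hist2h4 was listed at 0 in the untreated library of line 889 and at 0.303 to 0.318 in the others, which is about 1 read. The summed histone FPKM was 840 in the untreated library of line 682 and 563 to 601 in the others.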

How the results depend on the processing

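The BME call of Hist2h3c1 was lost in most alternatives: 0 histone genes were called with a pseudocount of 0.1, with the line as a replicate block, and with the mock dox library counted with dox (adjusted p = 0.219, 0.139 and 1.000), and leaving out 1 library gave 0 to 1 calls (0 in 5 of 6 cases, kept only without the dox library of line 700, with adjusted p from 0.0450 to 0.246; without either dox library 1 dox library remains, assumed to vary like the controls). It was kept without the filter, with median-ratio scaling and with limma-voom (adjusted p = 0.00377 to 0.0425); the causes were not tested. On plastic and for the interaction, 0 histone genes were called in each alternative run, block included, and the block changed no other call, though it raised counts at an unadjusted p under 0.05 (histone genes on plastic from 6 to 9 higher and 0 to 2 lower, DNA synthesis genes from 5 to 16 lower). The median BME change ran from -0.022 to 0.18 (0.18 without the dox library of line 700) without 1 library, and the plastic median was 0.041 with no filter on low values, where 68 rows were tested. The mean log2 ratio of summed H1 moved from 0.91 to 0.0024 in BME and from 1.30 to 0.54 on plastic without its most abundant gene. Summed H3 in BME moved from 0.55 to 1.00 likewise. Averaging log2(FPKM + 1) changes over rows gave 0.17 for H1, 0.21 for H2B and 0.12 for H3 in BME, and 0.50 for H1 and 0.21 for H2B on plastic. Detected rows per library fell to a median of 19.5 in BME and 22 on plastic at 1 FPKM.

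Signs turned for uncalled genes: in BME Hist1h4h was -0.056 with the replicate block and -0.075 with the mock library counted with dox, where Hist1h2bg was 0.026 and Hist1h4m -0.47, and Hist2h2be was -0.0020 with limma-voom. Leaving out 1 library gave ranges in BME of -0.32 to 0.77 for Hist1h4m, -0.94 to 0.026 for Hist1h2ae, -1.88 to 0.0028 for Hist1h2ap, -0.35 to 0.15 for Hist1h2bg, -0.70 to 0.15 for Hist1h4i, -1.56 to 0.81 for Hist2h3c2, -0.20 to 0.059 for Hist1h1e and -0.19 to 0.25 for Hist2h2be, and on plastic of -0.72 to 0.052 for Hist1h4d, -0.27 to 0.51 for Hist2h2be, -0.94 to 0.45 for Hist2h2aa2 and -0.32 to 0.13 for Hist1h1b. Chosen after seeing the data, scaling on total reads shifted libraries by -0.19 to 0.12 on the log2 scale and gave mean ratios of -0.06 in BME and 0.15 on plastic for all histones, and leaving out Hist2h4, Hist2h3b and Hist2h2bb gave 0.02 on plastic; neither changed a direction. With about 0.2 FPKM per read, differences among rows below 1 FPKM rest on a handful of reads.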
